A study of Mus musculus with 8 samples.

Results

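The genes H19, Igf2, Meg3, Dlk1, Peg3, Rasgrf1, Cdkn1c, Grb10, Mest and Plagl1 are imprinted in the mouse and were followed here across RNA of whole testis with and without CTCFL. Members were taken by gene name alone, as every probe set of the Affymetrix Mouse430_2 array whose deposited symbol was one of these 10. This gave 31 of the 45101 probe sets, from 1 each for H19, Cdkn1c and Mest to 10 for Meg3. All mice were 23 days old, and each testis sample was read on 1 array. The titles give 5 samples as wildtype, with replicate numbers 1, 2, 4, 6 and 7, and 3 as CTCFL mutant, numbered 3, 5 and 8. The mutants were homozygous for an allele of Ctcfl without its first to eighth exon. The controls are wildtype in the labels, the name used here, but heterozygous littermates in the study's text. The deletion was made in all tissues, by crossing to a chicken Actin-Cre transgene, so it was not limited to germ cells. The labels do not say that the samples came from separate animals, so p-values measure only the spread between these samples.

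Imprinted genes are transcribed mainly from the copy inherited from 1 parent, and the choice follows DNA methylation that is set in the germ line at imprinting control regions. At the H19 and Igf2 locus, CTCF binds the unmethylated maternal control region and keeps the enhancers from Igf2, so that H19 is made from the maternal and Igf2 from the paternal copy. CTCFL is the testis-specific paralog of CTCF and is also called BORIS, for Brother Of the Regulator of Imprinted Sites. A part of CTCFL in imprinting has been proposed, but the study's text calls a role in methylation-dependent imprinting unlikely. In the male germ line, methylation of the H19 and Meg3 control regions is laid down in prospermatogonia before birth. The comparison asked whether RNA levels of imprinted genes differed in testis without CTCFL. By the study's text, CTCFL protein is found only in late spermatogonia and preleptotene spermatocytes, a small part of the whole testis read here. Arrays read the sum of both parental copies, so the allele of origin was not measured, and fewer cells of a type cannot be told apart from less RNA per cell.

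Wildtype replicate 7 and mutant replicate 8 lay apart from the other 6 arrays, with scores of 40.2 and 38.2 on the first principal component against -24.8 to -3.10. Their mean level over 12 spermatid markers was 11.45 and 11.07 on the log2 scale, and at most 9.76 on the other 6. The mean of 7 fat cell markers was 7.62 and 7.55, against at most 6.24. Spermatocyte markers lay between 11.11 and 11.47 on all arrays, and Sertoli markers between 8.86 and 9.09. Peritubular, endothelial and macrophage markers spanned 8.01 to 8.16, 6.07 to 6.29 and 7.81 to 8.20. The level of Ctcfl was not analysed here, and the genotypes were taken from the labels alone. Differences of the members are also given among the other 6 arrays.

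Levels are log2 RMA values, and each gene has a main probe set, the brightest of those whose ID does not carry the x or s suffix for possible cross-hybridisation, where there is such a probe set. No member passed the test across all probe sets. With limma, 0 of the 31 probe sets had an adjusted p under 0.05, as did 0.00% of the whole array, and the adjusted p of all members was 1.0. At an unadjusted p under 0.05 there was 1 member probe set, that of Cdkn1c, where 3.47% of all probe sets lay under the same threshold. The 5 wildtype and 3 mutant values were apart for 1 of the 31, again Cdkn1c, against 2.70% of the whole array, or 1.38% when only probe sets higher in mutant are counted. The median difference between mutant and wildtype over the 10 main probe sets was 0.076 on the log2 scale, with 7 above 0 and 3 below, beside a median of 0.0032 over all probe sets. Without wildtype replicate 7 and mutant replicate 8 that median was 0.011. The 95% intervals of the 10 differences reached from -0.43 to 0.62, a span of 0.741-fold to 1.53-fold, and both bounds were those of Meg3, the most variable gene. Over all 31 probe sets the intervals reached further, from -0.67 to 0.77, or 0.627-fold to 1.71-fold.

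**Figure D1:**
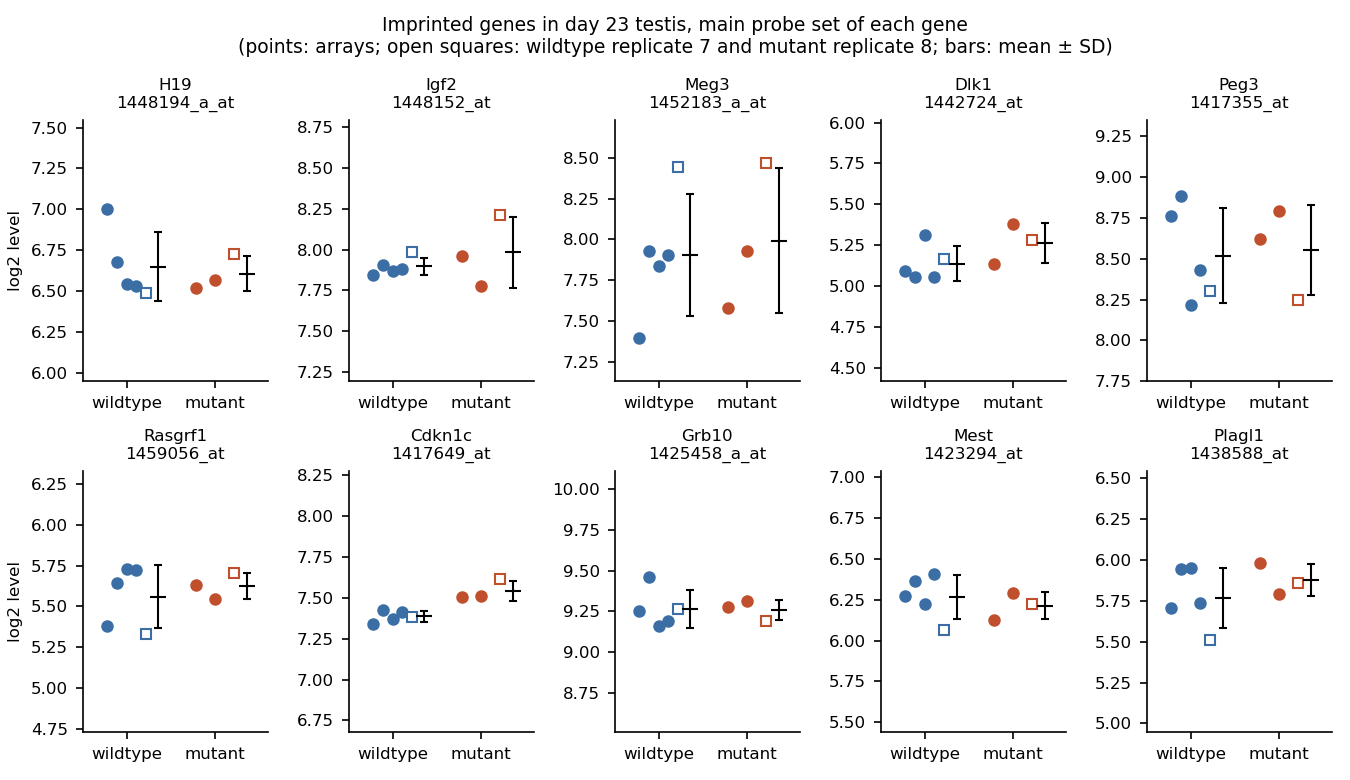
Log2 level (y axis) of the main probe set of each of the 10 genes in wildtype and mutant testis, with 1 point per array, open squares for wildtype replicate 7 and mutant replicate 8, and bars for the mean ± SD of 5 wildtype and 3 mutant arrays. Every panel spans the same 1.6 log2 units, so that the spread of Meg3, from 7.40 to 8.47, can be set against that of Cdkn1c, from 7.34 to 7.61, whose genotypes do not overlap.

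Promoter windows of 4 members are shown because their RNA either varied between arrays or is tied to a neighbour made from the opposite parental copy. Each covers 250 bases before and 50 after an annotated start, from RefSeq on GRCm38.p6, and is the window of its gene with the most CpG, the dinucleotide that carries imprints. RefSeq windows were at hand for 8 of the 10 genes, 15 in all, and none for H19 or Cdkn1c. Capitals mark the pattern AGNNGGC on either strand, drawn from the core of the CTCF motif. Which start was used in these testes was not measured.
Meg3, chr12:109540746-109541045, plus strand: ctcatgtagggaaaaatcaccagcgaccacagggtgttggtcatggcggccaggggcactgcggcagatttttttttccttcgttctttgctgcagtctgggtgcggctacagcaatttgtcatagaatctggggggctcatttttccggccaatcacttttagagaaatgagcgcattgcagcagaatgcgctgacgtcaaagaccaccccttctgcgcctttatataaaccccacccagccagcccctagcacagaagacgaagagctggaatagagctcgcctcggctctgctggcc
Dlk1, chr12:109452573-109452872, plus strand: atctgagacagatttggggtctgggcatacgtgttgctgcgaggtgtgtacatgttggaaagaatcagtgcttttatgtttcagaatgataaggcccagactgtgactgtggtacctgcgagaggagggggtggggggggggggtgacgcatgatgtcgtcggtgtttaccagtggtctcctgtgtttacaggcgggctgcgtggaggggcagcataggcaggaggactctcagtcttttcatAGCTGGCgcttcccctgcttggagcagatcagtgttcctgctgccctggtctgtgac
Igf2, chr7:142658755-142659054, minus strand: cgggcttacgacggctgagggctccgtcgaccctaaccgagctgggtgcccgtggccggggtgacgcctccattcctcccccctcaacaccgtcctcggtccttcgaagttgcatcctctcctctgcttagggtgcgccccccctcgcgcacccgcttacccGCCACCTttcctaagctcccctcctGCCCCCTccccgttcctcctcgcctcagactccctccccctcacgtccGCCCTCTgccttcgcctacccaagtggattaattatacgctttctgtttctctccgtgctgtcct
Plagl1, chr10:13090582-13090881, plus strand: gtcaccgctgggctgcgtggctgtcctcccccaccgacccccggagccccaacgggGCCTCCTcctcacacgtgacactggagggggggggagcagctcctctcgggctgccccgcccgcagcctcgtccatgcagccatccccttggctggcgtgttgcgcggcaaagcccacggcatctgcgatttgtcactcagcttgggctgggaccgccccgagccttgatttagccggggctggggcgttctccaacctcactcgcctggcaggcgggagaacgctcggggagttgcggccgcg

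The Meg3 window held 13 CpG and no AGNNGGC, the Dlk1 window 9 CpG and 1 match, the Igf2 window 24 CpG and 3 matches, and the Plagl1 window 26 CpG and 1 match. The other Meg3 window held 1 CpG and the other Igf2 windows 2, 14 and 7. Over the 32851 windows of all genes, which were not picked by CpG, the median was 7 CpG. AGNNGGC was found in 11 of the 15 member windows and in 59.8% of all windows. CCCTC, the letters CTCF is named for, was found on either strand in 13 of the 15 and in 66.0% of all, and 2 of the 3 AGNNGGC matches of the Igf2 window overlapped it. The 15 windows are not separate, since some genes have several and the Mest windows starting at chr6:30737800 and chr6:30737803 are nearly the same. These counts describe letters in a window and say nothing of binding.

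H19, a long noncoding RNA made from the maternal copy, was measured by 1 probe set. Its levels in wildtype replicates 1, 2, 4, 6 and 7 were 7.003, 6.68, 6.54, 6.53 and 6.49, and in mutant replicates 3, 5 and 8 they were 6.52, 6.57 and 6.73. All 3 mutant values lay inside the wildtype range, and wildtype replicate 1 was the highest of the 8 arrays. The means were 6.65 ± 0.21 (SD, n = 5) and 6.61 ± 0.11 (SD, n = 3). The difference was -0.043 (SE 0.12), with a 95% interval from -0.31 to 0.22. The exact two-sided permutation test gave p = 1.0. Without wildtype replicate 1 the difference was 0.045, so that array set the sign, and among the 6 arrays that lay together it was -0.14. The signal of H19 was modest, at percentile 53.2 of all probe sets. How much of it came from H19 RNA was not tested.

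Igf2, the fetal growth factor made from the paternal copy next to H19, had 2 probe sets. The main probe set gave 7.85, 7.91, 7.87, 7.88 and 7.98 in wildtype testis, in order of replicate number, and 7.96, 7.78 and 8.21 in mutant testis. The lowest and the highest of the 8 values were both mutant. The difference was 0.086 (SE 0.094), with an exact two-sided permutation p of 0.536. It was -0.0066 among the 6 arrays that lay together and 0.23 between mutant replicate 8 and wildtype replicate 7, with 1 array each. The other Igf2 probe set was dim, with means of 4.74 and 4.88. Neither neighbour passed the test, and the intervals of both included 0.

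Cdkn1c encodes the cyclin-dependent kinase inhibitor p57Kip2, a brake on the cell cycle, and is made from the maternal copy in the imprinted cluster beside Igf2. Its probe set gave 7.34, 7.43, 7.37, 7.41 and 7.39 in wildtype and 7.50, 7.51 and 7.61 in mutant testis. The highest wildtype value was thus below the lowest mutant value, and both groups were narrow. The means were 7.39 ± 0.034 (SD, n = 5) and 7.54 ± 0.062 (SD, n = 3). The level was 0.16 higher in mutant testis (SE 0.061, 95% interval 0.020 to 0.29), a ratio of 1.11. The unadjusted limma p was 0.0287, the limma adjusted p was 1.0, and the exact two-sided permutation test gave p = 0.0357, the smallest it can give for 5 against 3 arrays. Among the 6 arrays that lay together the difference was 0.12, with an unadjusted limma p of 0.143. Between the 2 arrays that stood apart it was 0.23.

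Marker lists also differed in mean level between genotypes, in both directions. The 8 spermatogonial markers measured averaged 7.54 to 7.75 in wildtype and 7.67 to 7.90 in mutant testis, with 7 of the 8 higher by mean. The 7 Leydig cell markers averaged 8.01 to 8.24 in wildtype and 8.03 to 8.51 in mutant testis, and the 9 Sertoli cell markers 8.86 to 8.94 and 8.90 to 9.09. The highest Leydig mean was that of mutant replicate 3, and mutant replicates 5 and 8, at 8.12 and 8.03, lay within the wildtype range. Of the Leydig and Sertoli markers, 5 of 7 and 8 of 9 were higher in mutant by mean, as were 5 of 5 macrophage markers, by 0.0073 to 0.041. The meiotic and later germ cell lists lay the other way, with 8 of 9 spermatocyte markers and 12 of 12 spermatid markers lower by mean. Their list means were 11.3 in wildtype and 11.2 in mutant testis for spermatocytes, and 9.96 and 9.81 for spermatids. Of the fat cell markers, 5 of 7 were lower in mutant by mean, with list means of 6.35 in wildtype and 6.12 in mutant testis. Lower by mean were also 4 of 5 endothelial and 3 of 7 peritubular markers. At an unadjusted limma p under 0.05, Gfra1 and Uchl1 of spermatogonia, Fshr of Sertoli cells and Star of Leydig cells were higher and Sycp1 of spermatocytes was lower, with differences of 0.35, 0.26, 0.18, 0.50 and -0.25. These markers were picked by that p, and 3.47% of all probe sets lay under the same threshold. No marker had a limma adjusted p under 0.05. The arrays give a level for every probe set, so no marker was at 0, and the lowest Leydig marker was Thbs2, with means of 5.34 and 5.27. The mean levels of these lists overlapped between genotypes, and their part in the difference of Cdkn1c was not tested.

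**Figure D2:**
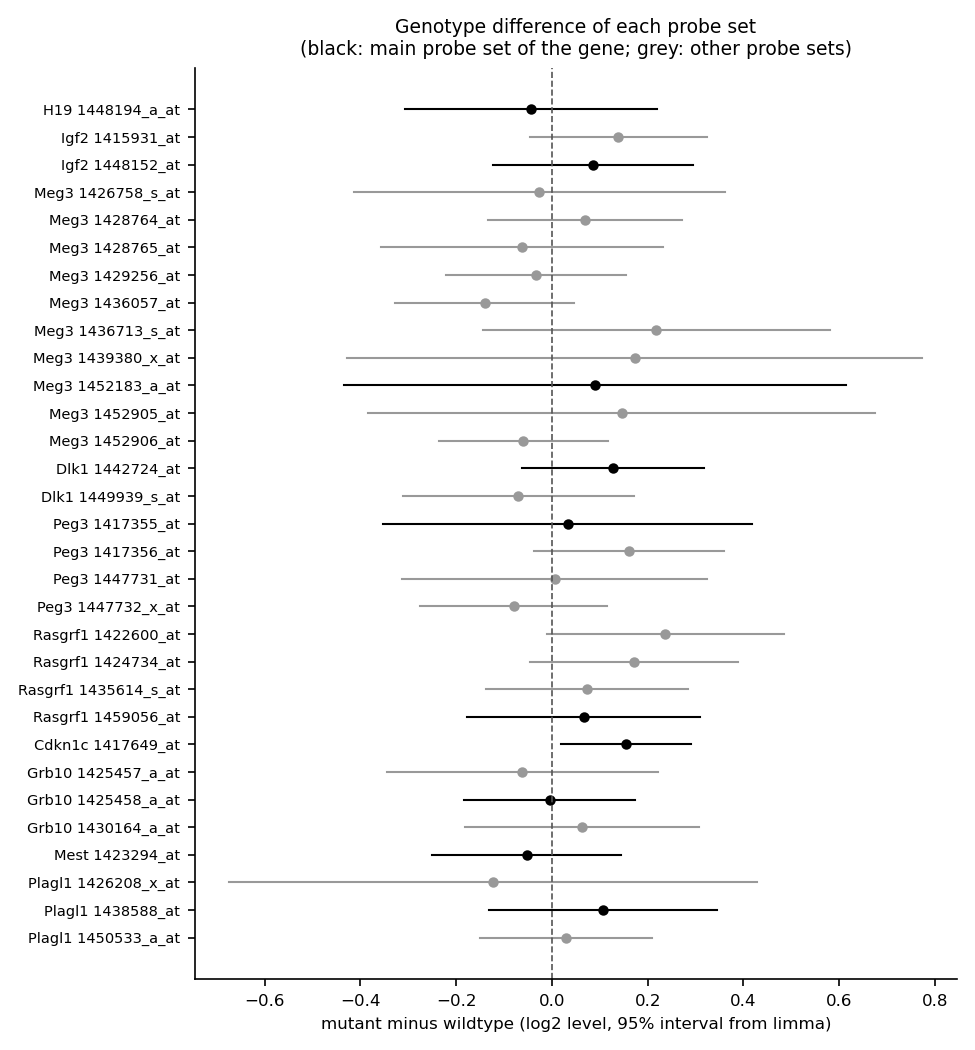
Mutant minus wildtype difference (x axis, log2 level) of all 31 probe sets, with points for the limma estimate, lines for its 95% interval, black for the main probe set of each gene and grey for the others. The interval of Cdkn1c, 0.020 to 0.29, lies wholly above 0, and those of the other 30 probe sets include 0.

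Meg3 and Dlk1 form a further pair of neighbours, with Meg3, a long noncoding RNA, made from the maternal copy and Dlk1, a transmembrane protein of the Notch ligand family that marks fetal Leydig cells, from the paternal copy. Meg3 varied most among the main probe sets. Its levels were 7.40, 7.93, 7.84, 7.90 and 8.45 in wildtype and 7.58, 7.93 and 8.47 in mutant testis, a span of 1.07 or 2.10-fold. The highest value in each genotype was the array that stood apart. Wildtype replicate 7 was 0.68 above the mean of the other wildtype arrays and mutant replicate 8 was 0.71 above that of the other mutants. Between genotypes the difference was only 0.091 (SE 0.23), with an exact two-sided permutation p of 0.679. Without the 2 arrays it was -0.010.

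The 10 probe sets of Meg3 did not share a direction between genotypes. Of these, 5 were higher and 5 lower in mutant, from -0.14 to 0.22, none with an unadjusted limma p under 0.05. With the 2 arrays as a block 1 of the lower ones had a difference of -0.17, an unadjusted limma p of 0.0292 and a limma adjusted p of 0.849. They shared more across arrays. Wildtype replicate 7 was the highest wildtype array in 7 of the 10, and mutant replicate 8 the highest mutant array in 7. The brightest, which carries the x suffix, reached 9.20 on wildtype replicate 7 and lay between 7.87 and 8.52 on the other wildtype arrays. Mutant replicate 5 was as high there, at 8.87, as mutant replicate 8, at 8.85. Spermatid and fat markers were also highest on wildtype replicate 7 and mutant replicate 8, and their part in the Meg3 values was not tested.

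By the root mean square difference of centred levels over the 8 arrays, the 5 genes most like Meg3 in their levels among 20718 were 4930433N12Rik, Pkd2l1, Eno3, 4930581F22Rik and Mapk15, at 0.07 to 0.09. Eno3 encodes the muscle form of the glycolytic enzyme enolase, Pkd2l1 a cation channel of the polycystin family and Mapk15 an atypical MAP kinase. Eno3 gave 9.99 and 9.94 on the 2 arrays that stood apart and 9.11 to 9.42 on the other 6. Meg3 alone among the members spanned at least 1 log2 unit in its main probe set, so no other member was matched in this way.

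The 2 probe sets of Dlk1 disagreed in sign. The main one was dim and gave 5.09, 5.06, 5.31, 5.06 and 5.17 in wildtype and 5.13, 5.38 and 5.28 in mutant testis. The groups overlapped, with a difference of 0.13 (SE 0.085) and an exact two-sided permutation p of 0.179. The brighter one, which carries the s suffix, differed by -0.070 (SE 0.11). No direction is given for Dlk1. Among the 6 arrays that lay together the differences were 0.13 and -0.14.

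**Figure D3:**
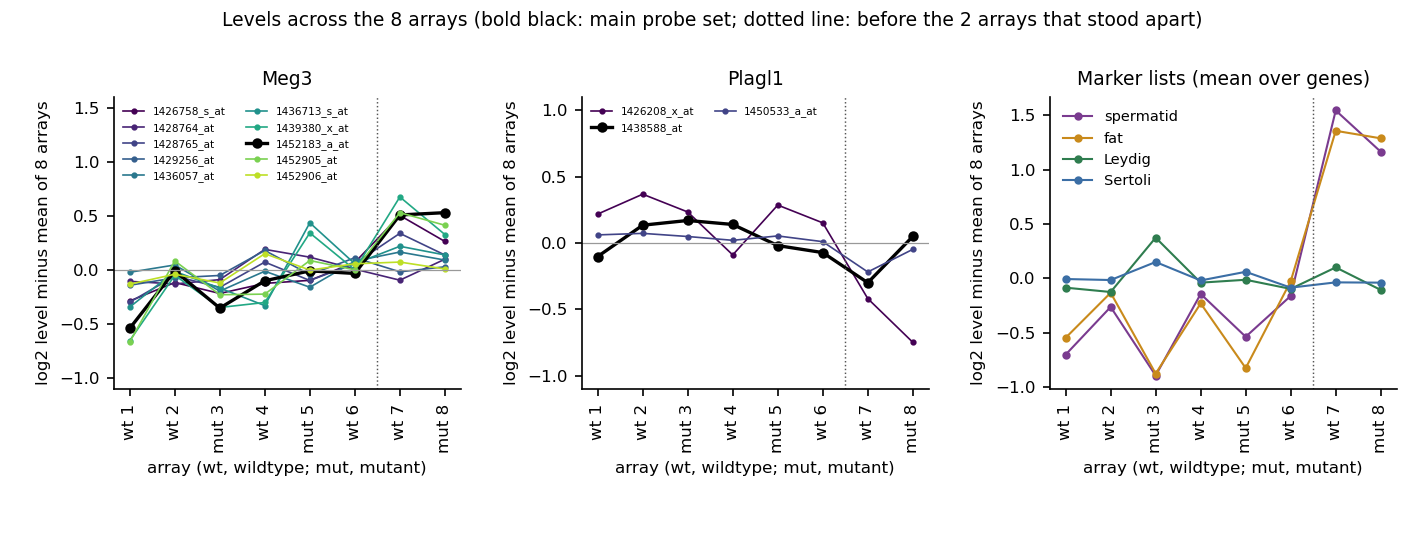
Log2 level minus the mean of the 8 arrays (y axis) for each probe set of Meg3 and of Plagl1 and for 4 marker lists, with the arrays on the x axis, bold black for the main probe set and a dotted line before wildtype replicate 7 and mutant replicate 8. Lines join the points of 1 probe set or list and carry no order of arrays. The main probe set of Meg3 was 0.68 and 0.71 above the other arrays of its genotype there, and the brightest one of Plagl1 differed from them by -0.58 and -1.01.

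Plagl1, a paternally expressed zinc finger transcription factor that restrains growth, was lower on these arrays in its brightest probe set. That probe set, which carries the x suffix and is not the main one, gave 8.93, 9.08, 8.62, 8.86 and 8.29 in wildtype and 8.94, 8.996 and 7.96 in mutant testis. Wildtype replicate 7 and mutant replicate 8 were the lowest of their genotypes, with values of -0.58 and -1.01 relative to the means of the others. The main probe set, dimmer at means of 5.77 and 5.88, was also lowest on wildtype replicate 7, at 5.51, but not on mutant replicate 8, at 5.86. Its genotype difference was 0.11 (SE 0.11), or 0.050 without the 2 arrays, and that of the brightest -0.12 (SE 0.25), so the probe sets differed in sign. With the 2 arrays as a block the brightest differed by -0.019 (SE 0.11), and among the other 6 arrays by 0.098.

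Peg3, a zinc finger protein made from the paternal copy, had 4 probe sets. The main one gave 8.76, 8.88, 8.22, 8.43 and 8.30 in wildtype and 8.62, 8.79 and 8.25 in mutant testis. All mutant values lay inside the wildtype range, with a difference of 0.033 (SE 0.17) and an exact two-sided permutation p of 0.893. Among the 6 arrays that lay together it was 0.13. A dimmer probe set gave 0.16 (SE 0.089) at an unadjusted limma p of 0.0992. With the 2 arrays that stood apart as a block, its unadjusted limma p was 0.0302 and its limma adjusted p 0.849. The remaining 2 probe sets were near the floor of the array, at percentiles 2.45 and 2.03.

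Rasgrf1, a guanine nucleotide exchange factor for Ras made from the paternal copy, had probe sets that shared a sign, as did Igf2. All 4 were higher in mutant, from 0.067 to 0.24, and none passed the test. The largest difference came from values of 5.57, 5.46, 5.24, 5.51 and 5.62 in wildtype and 5.504, 5.73 and 5.91 in mutant testis, which overlapped, with an unadjusted limma p of 0.0580 (0.0487 with that block, where the limma adjusted p was 0.849). Mutant replicate 8 was the highest mutant array in all 4. Without it and wildtype replicate 7 the 4 differences were 0.18, 0.028, -0.043 and -0.030. The levels of Rasgrf1 were low, between percentiles 21.6 and 37.0.

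Grb10, an adaptor that restrains insulin and IGF receptor signalling, had 3 probe sets. The main one gave 9.25, 9.46, 9.16, 9.19 and 9.26 in wildtype and 9.28, 9.31 and 9.19 in mutant testis. The difference was -0.0047 (SE 0.080), and its 95% interval from -0.18 to 0.17 corresponds to 0.881-fold to 1.13-fold, and among the 6 arrays that lay together it was 0.029. The other 2 Grb10 probe sets differed by -0.062 and 0.063. Mest, an enzyme-like protein of the alpha/beta hydrolase fold made from the paternal copy, gave 6.27, 6.36, 6.22, 6.41 and 6.07 in wildtype and 6.12, 6.29 and 6.23 in mutant testis. Its groups overlapped, with a difference of -0.053 (SE 0.088) and an exact two-sided permutation p of 0.607. Among the 6 arrays that lay together it was -0.11.

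Signal over background set a limit for several of these genes. The main probe sets of 9 genes not expected in testis, such as Alb of liver and Myh6 of heart, had mean levels from 3.41 to 6.05, with a median of 4.97. The main probe sets of Dlk1, Rasgrf1 and Plagl1 lay below the highest of these. Probe sets differ in affinity and the list is short, so signal without the matching RNA can also lie above this range, and the levels of H19 and Mest, between 6.21 and 6.65 by group mean, were not far above it.

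Other imprinted genes were taken from a list of 51, of which 48 had a probe set. Of the 20 paternally expressed genes measured, 15 were higher and 5 lower in mutant by mean, with a median difference of 0.022. Of the 28 maternally expressed genes, 17 were higher and 11 lower, with a median of 0.037. None had a limma adjusted p under 0.05. At an unadjusted p under 0.05 there were 2 higher paternally expressed genes and 1 lower maternally expressed gene, beside 3.47% of the whole array.

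Zrsr1, a splicing factor-like gene, gave 7.999, 7.96, 7.97, 7.93 and 7.92 in wildtype and 8.08, 8.13 and 8.06 in mutant testis. Its groups did not overlap, as was so for 2.70% of all probe sets. Its difference was 0.13 (SE 0.058), at an unadjusted limma p of 0.0480 and a limma adjusted p of 1.0. Peg12 differed by 0.22 (SE 0.091), but its mean levels of 3.45 and 3.67 were at percentile 2.99 of the array. Gnas, which encodes the stimulatory G protein alpha subunit and has transcripts of either parental origin, differed by -0.28 (SE 0.12) in its main probe set and by -0.063 in the mean over all its probe sets. Ppp1r9a differed by 0.20. Inpp5f, a phosphoinositide phosphatase, differed by 0.19, by 0.020 in the mean over all its probe sets and by 0.31 without mutant replicate 8. Snrpn, a paternally expressed splicing protein gene of the Prader-Willi locus, differed by 0.066 (SE 0.13) with overlapping groups.

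**Figure D4:**
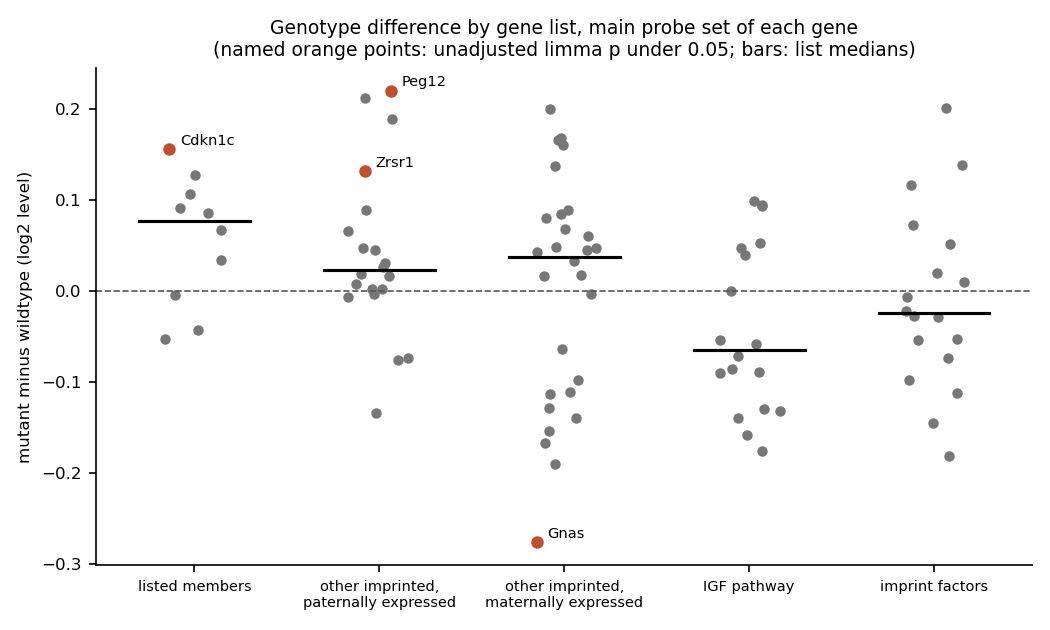
Mutant minus wildtype difference (y axis, log2 level) of the main probe set of each gene in 5 lists, with orange and a name for an unadjusted limma p under 0.05 and a bar for each list's median. Medians were 0.076 for the 10 members, 0.022 and 0.037 for the other imprinted genes, -0.066 for the IGF pathway and -0.025 for the imprint factors, and 4 genes are named.

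Genes of the IGF pathway, through which Igf2 acts, were read beside it. Of 18 genes, 6 were higher and 12 lower in mutant by mean, with a median difference of -0.066 and no unadjusted p under 0.05. Igf1r, the receptor that passes on the signal of both IGF ligands, differed by 0.094 (SE 0.13). Igf2r, the maternally expressed receptor that clears Igf2 and is also in the list of maternally expressed genes, differed by 0.047 (SE 0.098). Igf1, the other ligand, differed by -0.18 (SE 0.14), but by -0.058 without mutant replicate 8 and -0.032 among the 6 arrays that lay together. Igf2bp3, an RNA-binding protein of Igf2 mRNA, gave 8.998, 8.97, 9.16, 9.01 and 9.02 in wildtype and 8.94, 8.86 and 8.91 in mutant testis. These groups did not overlap, as was so for 2.70% of all probe sets, and the difference was -0.13 (SE 0.066). The unadjusted limma p of Igf2bp3, 0.0786, was the smallest of the 18 genes, and it was named for that reason. Igfals, Igfbp1 and Irs2 differed by -0.16, -0.14 and 0.099. Igfals was -0.094 without wildtype replicate 4, and Igfbp1 -0.23 without mutant replicate 8.

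Factors that set, keep or read imprints gave no call either. Of 18 such genes, 7 were higher and 11 lower in mutant by mean, with a median of -0.025 and no unadjusted p under 0.05. Ctcf differed by -0.022 (SE 0.12), and its lowest values, 8.76 and 8.82, were those of wildtype replicate 7 and mutant replicate 8. Dnmt3a, a methyltransferase that lays down imprints in male germ cells, differed by 0.12 (SE 0.11), and by 0.038 without mutant replicate 3. Yy1, a zinc finger protein with sites in several imprinted loci, differed by -0.18, but by -0.064 without mutant replicate 8 and by -0.026 in the mean over its probe sets. Its relative Zfp42 differed by -0.11, and by -0.067 without that array. Dppa3, which protects methylation in the early embryo, differed by 0.20, but by 0.063 without mutant replicate 8 and 0.016 among the 6 arrays that lay together. The cohesin subunit Smc3 differed by 0.14, by 0.057 without mutant replicate 5 and by 0.015 in the mean over its probe sets.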

How the data were processed

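Total RNA of testis from mice of postnatal day 23 was read on 8 Affymetrix Mouse430_2 arrays. According to the study's methods and the labels, the authors corrected the background and normalised by RMA and quantiles. The deposited table gives each probe set's log2 level on each array, from 2.90 to 14.9, which was used without a filter. Its group means and fold changes, and 2 further tables of the authors' limma statistics, were not used. Groups and replicate numbers came from sample titles. All 45101 probe sets, 64 of them controls, entered 1 linear model in limma 3.58.1 under R 4.3.3 (lmFit, then eBayes). Tests were two-sided, p-values were adjusted by Benjamini-Hochberg over all probe sets, and the fit was tested on simulated data. Single values were also tested by exact permutation of the 8 arrays. Other steps used Python 3.11.15, numpy 2.4.6, pandas 2.3.3, scipy 1.17.1 and matplotlib 3.10.9.

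The members, lists and tests were chosen with earlier results of these data known. The text names all members, the 5 genes of each further list (other imprinted genes, IGF pathway, imprint factors) with the smallest p, and Igf1r, Igf2r, Ctcf and Snrpn. For members spanning at least 1 log2 unit, it also names the 5 genes of most similar pattern. Rtl1, Dio3 and Peg13 had no probe set matched here. Names were matched by deposited symbol and by Entrez ID through RefSeq (GRCm38.p6). Marker lists covered 9 cell types, and 1 gene of the list not expected in testis is not reported here. The number of arrays limits the precision. Alternatives were leaving out each array or the 2 that stood apart, these 2 as a block, filters, scalings, priors, array weights, an offset of 64 on the linear scale and the mean of a gene's probe sets.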

Additional observations from a re-analysis of the deposited data

Results flagged for a closer look

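Among the 5 wildtype arrays, 2 of the 31 member probe sets had a value set widely apart from the rest, where chance gives about 1 in 20, or 1.55 here. Both departures were low values on wildtype replicate 7. A Grb10 probe set that is not the main one was at 5.74, with the next wildtype array at 6.10. The dimmest Plagl1 probe set was at 4.19, with the next at 4.42. Values of the 3 mutant arrays were not examined in this way.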

How the results depend on the processing

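No paired analysis was possible because no replicate number occurs in both genotypes. The count of 0 probe sets at a limma adjusted p under 0.05 held under the alternatives run, except that it was 1, not a member, with wildtype replicate 7 and mutant replicate 8 as a block. It is 1564 at an unadjusted p under 0.05 and 1216 by groups without overlap. The count of 1564 became 707 in probe sets above the median level, where fewer were tested, 2956 among the 6 arrays that lay together and 2644 with the block. Leaving out 1 array it was 1220 to 2649, the highest without mutant replicate 8. The median difference of the members moved from 0.076 to 0.011 among the 6 arrays. It was 0.025 without wildtype replicate 7, 0.028 without mutant replicate 8, 0.030 as the mean of a gene's probe sets, 0.032 with array weights and 0.037 with the offset.

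Cdkn1c was higher in mutant under all 19 alternatives (0.11 to 0.17), with an unadjusted p under 0.05 in 15 and limma adjusted p of 0.821 to 1.0. Its groups did not overlap, so leaving out arrays could not reverse its sign. The alternatives reuse the same arrays and are not separate tests. Dlk1, Mest and Plagl1 also kept their sign in their main probe sets. Reversals followed, and their cause was not tested. Among the 6 arrays Igf2 was -0.0066, Meg3 -0.010, Rasgrf1 -0.030, Grb10 0.029, Ctcf 0.012 and Snrpn -0.072. With the block Meg3 was -0.0017, Grb10 0.0016 and Ctcf 0.025. With array weights Grb10 was 0.0072, Ctcf 0.0057 and Snrpn -0.0074. Leaving out 1 array, H19 ranged from -0.10 to 0.045, Igf2 from -0.028 to 0.19, Meg3 from -0.15 to 0.30, Peg3 from -0.085 to 0.19, Grb10 from -0.031 to 0.044, Igf1r from -0.091 to 0.21, Ctcf from -0.098 to 0.088 and Snrpn from -0.034 to 0.13. The values of opposite sign at the ends of these ranges came without wildtype replicate 1 for H19, 2 for Grb10 and 7 for Snrpn, and without mutant replicate 8 for Igf2, Meg3 and Ctcf, 5 for Peg3 and 3 for Igf1r. Array number and, for dim genes, signal over background set the limits.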
